A study of Sus scrofa with 32 samples.

Results

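Epithelial cells were recovered as a small fraction of the cells sequenced from porcine ileum: 386 of 35386 ileal cells that passed quality control carried the transcripts of 2 epithelial genes and lacked those of 2 lymphocyte genes. A cell passed quality control if it had enough unique molecular identifiers (UMIs, each standing for 1 captured RNA molecule), at least 550 genes and a share of mitochondrial UMIs under the study's cap; the shallowest epithelial cell held 1353 UMIs. Epithelial cells were chosen by measured UMIs: such a cell was taken as epithelial if it held at least 2 UMIs of EPCAM, an adhesion molecule of epithelial surfaces, at least 2 UMIs of KRT8, a keratin of simple epithelium, and no UMI of CD3E (a T cell receptor chain partner) or CD79B (a B cell receptor chain partner). The other 35000 cells that passed quality control served as the comparison. Because measured transcripts chose the cells, differences between epithelial and other cells are described here without a test, and only the contrast between dissections was tested.

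The ileal epithelium is a single sheet that renews itself from stem cells in crypts. Their progeny become absorptive enterocytes, which digest and take up nutrients and, in the ileum, recover bile acids, or secretory cells such as mucus-producing goblet cells and hormone-producing enteroendocrine cells. Where lymphoid follicles of Peyer's patches lie beneath it, the sheet is specialised for contact with luminal antigen, and elsewhere it carries many intraepithelial lymphocytes.

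The ileum came from 2 mixed-breed pigs aged 7 weeks, pig 1 labelled female and pig 2 labelled male. The ileum of each pig was dissected into a piece that held Peyer's patches (PP), a piece free of them (non-PP) and a whole cross section (whole ileum), which gave 1 droplet-based single-cell library each, 6 in all, and blood mononuclear cells (PBMCs) of each pig gave 2 more that were used as a background. Dissection and pig were the factors that the labels gave. The suspensions combined detached epithelium with digested tissue but were then enriched for live lymphocytes on a density gradient and on dead-cell removal columns, so a share of epithelial cells here is a share of what survived that enrichment and not of the tissue. Total UMIs per ileal library ran from 21134542 in non-PP pig 2 to 40111934 in PP pig 1.

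The library labelled whole ileum pig 1 went against its label. Its epithelial cells held 41 UMIs of 4 Y-linked genes, or 132 CPM (UMIs of a gene scaled to an equal total of UMIs in every library, the usual CPM unit), whereas the epithelial cells of PP and non-PP of the same pig, labelled female, held 0. In pig 2 the same genes reached 90.3 CPM in PP, 159 CPM in non-PP and 125 CPM in whole ileum. In the other cells, 12 genes separated PP and non-PP of pig 1 from those of pig 2 by more than 8-fold, and in 11 of the 12 the library labelled whole ileum pig 1 lay nearer to pig 2, with BPI, an antibacterial protein gene, as the exception. It is called by its label below, and the gene counts, the list counts that change and the edgeR fits of PP against non-PP epithelial cells are also given without it. Fits with the pig as a block over 6 libraries place it in pig 1 by its label, so the blocked fit without it is given beside them. Of the 386 cells, 18 shared a barcode with a cell of another library, but none with an epithelial cell. A doublet score marked 1198 of the 35386 ileal cells (3.39%) and 0 of the 386.

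Epithelial cells made up a larger share of non-PP than of PP libraries in both pigs, with wide differences between the pigs. In PP they were 74 of 7337 cells in pig 1 (1.01%, exact 95% Clopper-Pearson interval 0.793 to 1.26) and 29 of 6872 in pig 2 (0.422%, 0.283 to 0.606). In non-PP they were 162 of 3908 cells in pig 1 (4.15%, 3.54 to 4.82) and 39 of 3776 in pig 2 (1.03%, 0.735 to 1.41). Whole ileum held 29 of 5789 cells in the library labelled pig 1 (0.501%) and 53 of 7704 in pig 2 (0.688%). The groups did not overlap, but PP pig 1 at 1.01% and non-PP pig 2 at 1.03% were nearly equal, so that the separation was clear only within a pig, where non-PP exceeded PP by 4.11 times in pig 1 and 2.45 times in pig 2. The mean was 0.715% ± 0.415 (SD, n = 2) in PP and 2.59% ± 2.20 (SD, n = 2) in non-PP, a difference of -1.87 percentage points for which a two-sided exact permutation test over libraries gave p = 0.333, the smallest p that 2 against 2 allows. Leaving out non-PP pig 1 brought the difference to -0.318 percentage points and leaving out non-PP pig 2 to -3.43, so its size rests on non-PP pig 1. With at least 3 UMIs of EPCAM and KRT8, or with a mitochondrial cap of 25%, the groups overlapped (exact permutation p = 0.667). The blood libraries had no epithelial cell among 6443 and 6800 cells, which allows shares of up to 0.0466% and 0.0441% (3 counts over the cells of each library). All intervals and these limits cover counting error only.

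The selection rule left few cells near its limits for EPCAM and KRT8 but removed many that carried lymphocyte transcripts. At the edge, 15 cells had exactly 2 UMIs of EPCAM or KRT8 (median 2192 UMIs in all), and 14 cells fell just outside, with 1 UMI of either gene and at least 2 of the other (median 1879.5). The EPCAM and KRT8 limits alone were met by 616 cells, of which 230 were left out because they held CD3E (156 cells) or CD79B (95 cells), 141 of them with a single such UMI. Those 230 cells were deep, with a median of 11092.5 UMIs, and the source of their lymphocyte transcripts was not tested.

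Epithelial cells held more UMIs than the cells around them. They had a median of 9626.5 UMIs and 2259.5 genes against 2739 UMIs and 1025 genes in the other cells, with a median of 6.13% mitochondrial UMIs against 4.31%. By library the median ran from 8251.5 UMIs (non-PP pig 1) to 12341.5 UMIs (PP pig 1), and the mean of the library medians was 11575.25 UMIs in PP and 9791.25 in non-PP (two-sided exact permutation p = 0.667). PTPRC, the pan-leukocyte gene of CD45, had a UMI in 56 of the 386 cells (14.5%) and in 84.1% of the other cells.

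The mitochondrial limit removed a larger share of epithelial than of other barcodes in every library. Among barcodes that met every other criterion, 51 of 125 epithelial barcodes exceeded the mitochondrial cap in PP pig 1 (40.8%) and 3 of 32 in PP pig 2 (9.38%). In non-PP 193 of 355 exceeded it in pig 1 (54.4%) and 37 of 76 in pig 2 (48.7%), and in whole ileum 28 of 57 (49.1%, library labelled pig 1) and 17 of 70 (24.3%, pig 2). Both non-PP libraries lay above both PP libraries, with a difference of -26.4 percentage points between the means (25.1% in PP, 51.5% in non-PP; two-sided exact permutation p = 0.333, the smallest possible). The other barcodes exceeded the limit in only 1.65% to 9.26% per library, and the highest of these shares was also in non-PP pig 1.

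**Figure D1:**
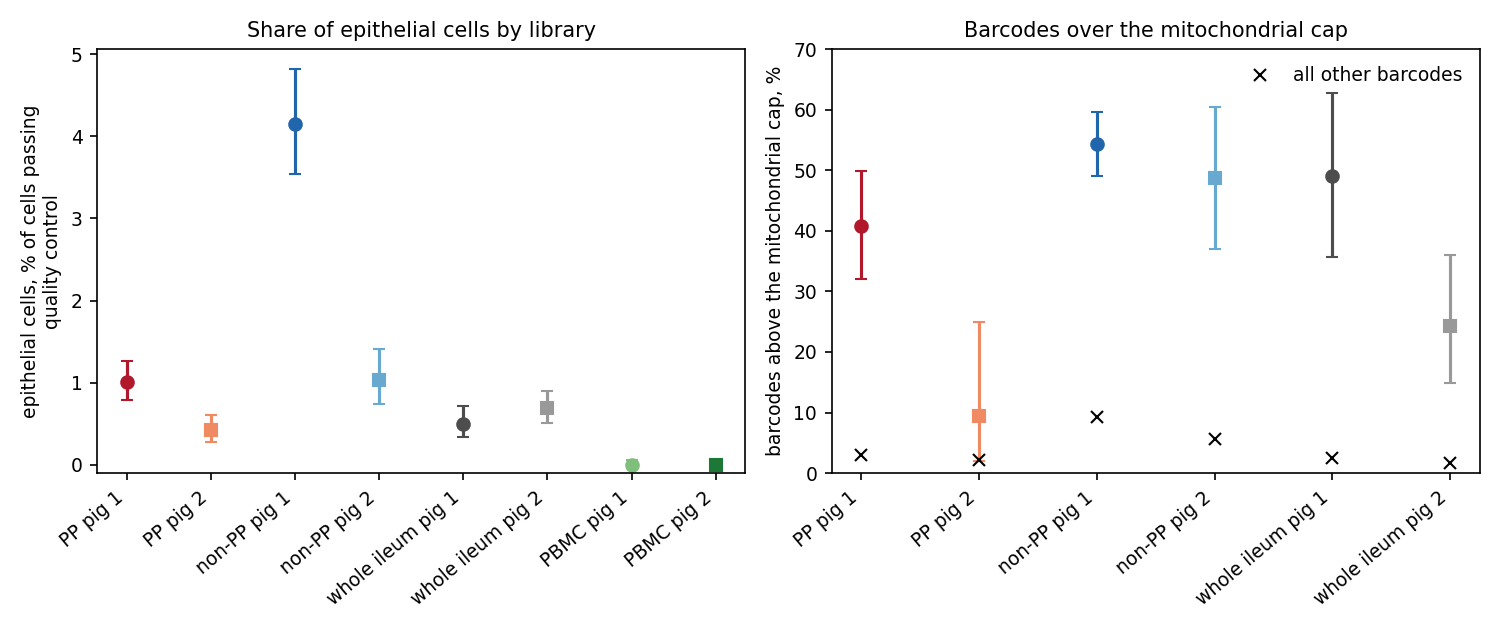
Left, share of epithelial cells among cells passing quality control (percent) in the 6 ileal and 2 blood libraries; right, share of barcodes above the mitochondrial cap (percent) among epithelial barcodes (points) and all other barcodes (crosses). Bars are exact 95% intervals, circles are pig 1 and squares pig 2 by label. Non-PP pig 1 stood far above the other 5 ileal libraries on the left, and epithelial barcodes lay above the other barcodes in every library on the right.

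Genes that the rule did not use carried the same identity. Per library, the level of each gene in the summed epithelial cells was divided by its level in the summed other cells, both in CPM, for 7186 genes that had at least 50 UMIs in epithelial cells or a level in other cells that would give 50 UMIs at the epithelial depth. UMIs count molecules from their 3' ends and were not divided by gene length. Of these genes, 1023 (14.2%) lay above a log2 ratio of 1 in each of the 6 libraries and 701 (9.76%) lay below -1 in each, around a median of -0.19 over all genes. Without the library labelled whole ileum pig 1 the counts were 1061 higher and 732 lower of 6979 genes, and the mean ratios of the 25 leading genes moved by at most 0.23. EPCAM, KRT8, CD3E and CD79B were left out of all list counts. All 12 other measured genes of simple epithelium were higher, with a median log2 ratio of 4.82. Among them were LGALS4, a galectin of the brush border, at 5.53 ± 0.90 (SD, n = 6 libraries), KRT20, a keratin of differentiated villus cells, at 5.51 ± 0.92, and the tight junction claudin CLDN7 at 5.38 ± 0.87. At the other end, 9 of 9 pan-leukocyte genes and 15 of 15 T cell and ILC genes were lower in all 6 libraries, with medians of -5.18 and -4.96, as were 7 of 9 B cell genes and 8 of 9 myeloid and mast cell genes. The antibody-secreting cell list differed, with 3 of 10 genes lower, 1 higher and a median of 0.39. Fibroblast, muscle and vessel genes were nearly absent, with 12 of 16 at 0 UMIs and the most abundant, KDR, at 6 UMIs.

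The 25 genes with the largest mean ratio began with LYPD8, a secreted protein that keeps bacteria off the colonic surface (5.68 ± 0.88), and FABP6, the cytosolic bile acid binding protein of the ileum (5.59 ± 1.13). SPINK4, a protease inhibitor of goblet cells, followed at 5.53 ± 1.60, and SLC51B, a subunit of the basolateral bile acid exporter, stood at 5.37 ± 0.98. The list also held the chemokines CCL20, which draws CCR6-bearing lymphocytes (5.35 ± 1.15), and CCL25, which draws gut-homing CCR9-bearing lymphocytes (5.11 ± 0.97), the antioxidant enzyme GPX2 (5.24 ± 0.76), the fatty acid binding protein FABP1 (5.27 ± 1.18) and the endocrine granule protein CHGA (5.09 ± 1.87). KRT14, named so in the matrices, stood at 5.36 ± 0.98. For LYPD8 the log2 ratio was 5.59 in PP pig 1, 6.80 in PP pig 2, 4.33 in non-PP pig 1, 5.22 in non-PP pig 2, 5.69 in the library labelled whole ileum pig 1 and 6.44 in whole ileum pig 2. PP pig 2 was also highest and non-PP pig 1 lowest in LGALS4, KRT20, CLDN7, SLC51B and FABP6.

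**Figure D2:**
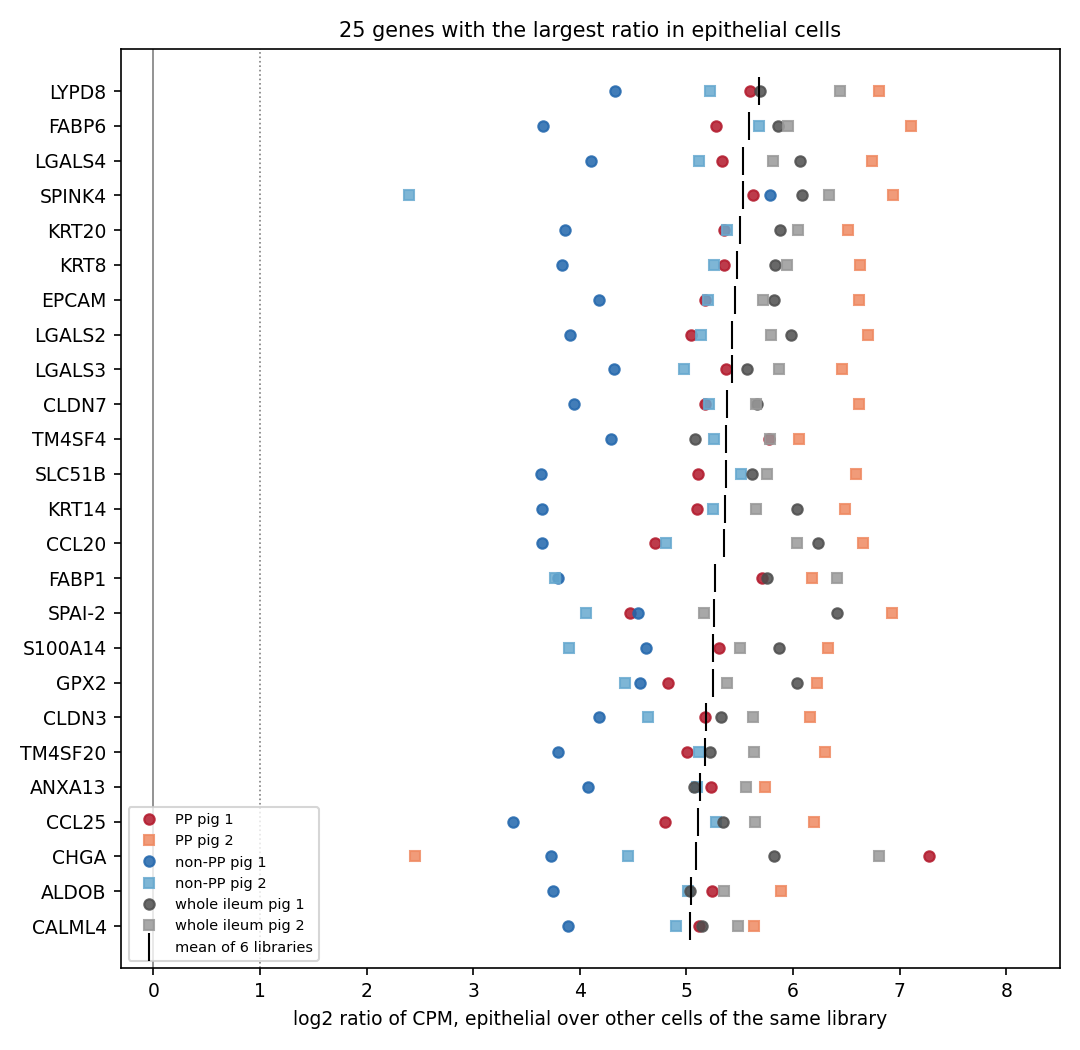
Log2 ratio of CPM in epithelial over other cells of the same library (horizontal axis) for the 25 leading genes, with 1 point per library and a tick at the mean of 6 libraries. All points lay to the right of the dotted line at 1, those of non-PP pig 1 mostly at the left and those of PP pig 2 mostly at the right, and CHGA and SPINK4 spread widest.

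FABP6 alone made up a large part of the epithelial message. Its level was 38460.8 CPM in PP pig 1, 29722.5 CPM in PP pig 2, 104440.0 CPM in non-PP pig 1, 64006.5 CPM in non-PP pig 2, 22912.6 CPM in the library labelled whole ileum pig 1 and 29591.3 CPM in whole ileum pig 2. A UMI of FABP6 was seen in 94.3% of epithelial cells but also in 42.9% of the other cells, and with every cell thinned to the least depth that quality control allows in 78.8% and 26.3%. Barcodes of 1 to 100 UMIs, which hold free RNA, carried FABP6 at 55450 CPM in non-PP pig 1 and at 2040 CPM in PP pig 2. Non-PP pig 1, where free RNA held the most FABP6, also had the lowest epithelial-to-other ratio of FABP6, and the part of free RNA in the ratios was not tested. For EPCAM itself the share of other cells with a UMI was 2.66%, or 1.33% after thinning.

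The functional groups of epithelium stood above the other cells to different degrees, and their counts are set beside 14.2% of all genes higher in each library. All 5 measured ileal bile acid genes were higher in each library (median 4.86), among them SLC10A2, the apical importer (3.62 ± 0.52), and NR1H4, the bile acid receptor (4.58 ± 0.56). Of 16 absorptive enterocyte genes 11 were higher (median 3.52), led by ANPEP, an aminopeptidase (4.74 ± 0.66), and SI, sucrase-isomaltase (4.55 ± 0.54). Of 12 lipid genes 8 were higher (median 3.07). Goblet genes had a large median of 4.47, yet only 2 of 10 passed in every library, and 1 of 12 enteroendocrine genes did, a share below that over all genes. Of 13 epithelial cytokines and immune ligands 9 were higher, including PIGR, the carrier of secretory immunoglobulin (4.78 ± 0.66), FCGRT, the neonatal Fc receptor (2.88 ± 0.53), and BTNL2, a butyrophilin-like gene (4.64 ± 0.70). Without the library labelled whole ileum pig 1, the counts were 13 of 15 for absorptive, 9 of 12 for lipid and 8 of 12 for cytokine and ligand genes, and the bile acid, goblet and enteroendocrine counts were as above.

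Antigen presentation genes split between class II and the class I light chain and peptide supply genes (over all genes, 14.2% were higher and 9.76% lower in each library). All 6 measured MHC class II genes were lower in epithelial cells in each library, with a median of -4.93, and CD74, the invariant chain, stood at -5.07 ± 0.48. MHC class I and immunoproteasome genes were neither higher nor lower in all libraries (0 and 0 of 10, median 0.70). No class I heavy chain was among them, since SLA-5 had 0 UMIs and the other heavy chains listed were not named in the matrices. B2M, the class I light chain, had a UMI in all 386 cells. Interferon response genes were near the other cells, with 2 of 21 higher, IRF7 (1.96 ± 0.53) and OAS2 (2.00 ± 0.99). Genes known to rise on tissue dissociation were higher in 5 of 14, with FOS at 2.65 ± 0.44 and EGR1 at 3.96 ± 0.33.

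Clustering of the 386 cells alone gave 12 clusters, of which 7 could be named from their marker genes. For naming, absorptive, lipid and bile acid genes were pooled as enterocyte-like, and crypt stem and cell cycle genes as crypt-like. A cluster took the name of the epithelial kind with the most list members among its 10 leading genes. Only members with a UMI in at least 20% of its cells counted, a limit set after the data had been seen. A cluster took no name on a tie or with fewer than 3 list members detected. It also took none where a list of no such kind, as antimicrobial or leukocyte genes, held the most. The genes that lead a cluster describe it and were not tested. Crypt-like cells (cluster 1, 65 cells) held OLFM4, a stem and progenitor marker, at 1879 CPM against 31.2 CPM in the rest, with a UMI in 55 of the 65 cells, and also carried the replication gene PCLAF in 45 cells and SPP1, osteopontin, in 37. Enterocyte-like cells (cluster 2, 60 cells) were led by PMP22, the lactate transporter SLC5A12 and MEP1B, a brush border metalloprotease, and their 10 leading genes also held the sodium-glucose transporter SLC5A1, the bile acid importer SLC10A2, the retinol binding protein RBP2 and FABP2, a fatty acid binding protein at 3431 CPM against 278 CPM in the rest.

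Goblet-like and enteroendocrine-like cells formed 5 clusters. Goblet-like cells fell into clusters 4, 8 and 11 (45, 22 and 18 cells). Clusters 4 and 8 took the name from 1 goblet list gene each, TFF3 and BCAS1. Cluster 4 held the trefoil peptides TFF2 and TFF3, the latter at 215211 CPM against 13562 CPM in the rest. The leading genes of cluster 8 included MSMB and TCN1, and those of cluster 11 the gel-forming mucin MUC2 at 18823 CPM and the secretory transcription factor SPDEF. Cluster 11 was shallow, with a median of 2161 UMIs. Enteroendocrine-like cells formed cluster 10 (19 cells), with the granule proteins CHGA and CHGB and the opioid precursor PENK, and cluster 12 (12 cells), with the hormones GCG, NTS, PYY and SST. GCG was found in 9 of the 12 cells, PYY in 10, NTS in 6 and SST in 3.

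The remaining 5 clusters stayed numbered. Cluster 3 (49 cells) was led by CA7, GUCA2B, GUCA2A, BEST4 and OTOP2, genes known from a rare absorptive cell marked by BEST4, but these transcripts came from only 4 to 8 of its cells, so the cluster as a whole took no name, while SLPI, an antiprotease, had a UMI in 43 of its cells. Cluster 5 (28 cells) was led by the brush border carboxypeptidase CPO, cluster 6 (25 cells) by the metallothioneins MT-2B and MT1A, and cluster 7 (23 cells) by SFTPD, a collectin, and GPX2. Cluster 9 (20 cells) was led by BPI, by ITLN2, a microbe-binding lectin, RETNLB, an antibacterial resistin-like protein, and CFB, complement factor B. In cluster 9 BPI reached 6928 CPM in 12 cells against 0.3 CPM in the rest, and CFB 3733 CPM in 18 cells against 67.1 CPM. Goblet transcripts were present in it as well, with SPINK4 in 20 cells, AGR2, a mucin-folding enzyme, in 19 and MUC2 in 18, but its leading genes held as many members of the antimicrobial as of the goblet list, so it stayed unnamed and its cells are not in the goblet-like counts.

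Tuft and M cells were not recovered as kinds. Of 11 tuft cell genes in the matrices, TRPM5, HPGDS and IL25 were at 0 and POU2F3 and DCLK1 at 1 UMI each. GP2, the M cell receptor for bacteria, had 2 UMIs in a single epithelial cell, and SPIB, a transcription factor of M cells and B cells, had 30 UMIs. PLA2G2A and MMP7, products of Paneth cells, were at 0, whereas LYZ, lysozyme, had 4441 UMIs in 265 cells, 52.3% of them in crypt-like cells.

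**Figure D3:**
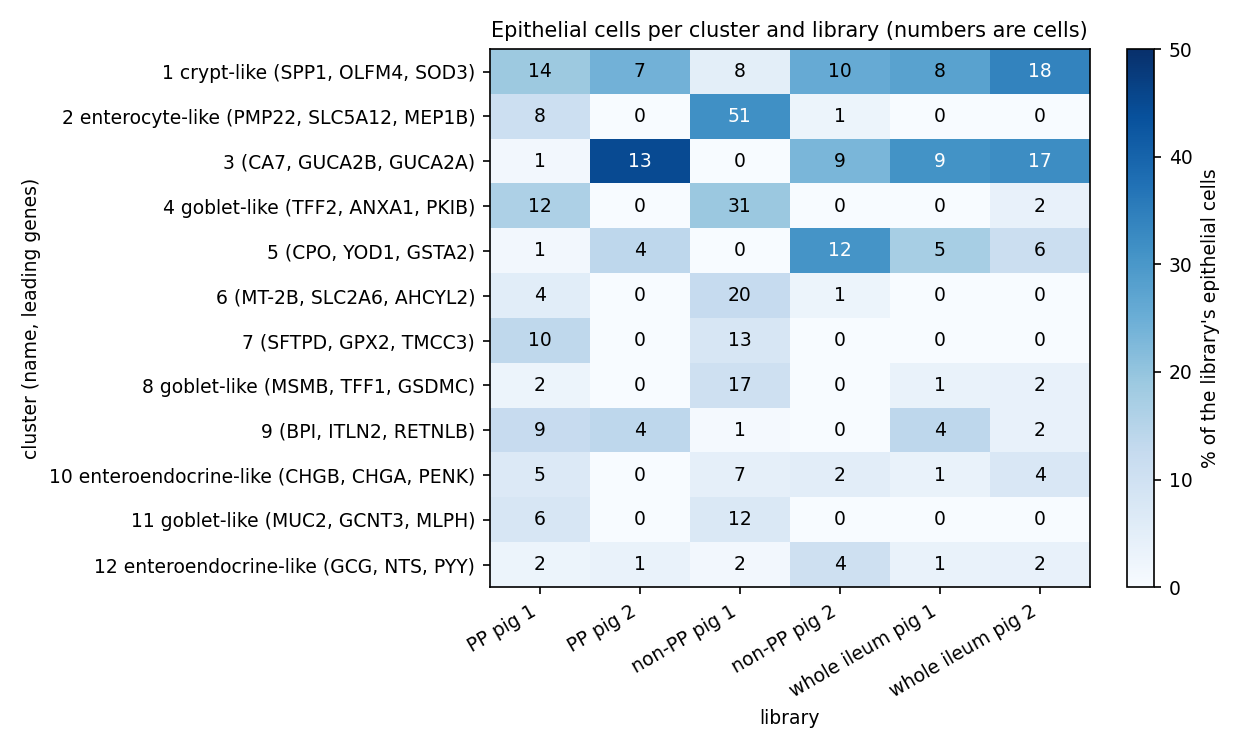
Epithelial cells per cluster (vertical axis, with name and leading genes) and library (horizontal axis); numbers are cells and the shade is the percent of the library's epithelial cells. The goblet-like and enterocyte-like clusters were filled mainly by PP and non-PP of pig 1, and cluster 3 by the other 4 libraries.

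The make-up of the epithelium differed widely between libraries of the same dissection. Goblet-like cells were 20 of 74 in PP pig 1 (27.0%) and 60 of 162 in non-PP pig 1 (37.0%), but 0 of 29 and 0 of 39 in those of pig 2 (exact upper limits 11.9% and 9.03%), and 1 of 29 and 4 of 53 in whole ileum. Enterocyte-like cells were 8 and 51 in PP and non-PP of pig 1, 0 and 1 in those of pig 2, and 0 in both whole ileum libraries. The summed absorptive list still stood at 858 and 954 CPM in whole ileum. It stood at 1649 and 4481 CPM in PP and non-PP of pig 1 and at 926 and 1916 CPM in those of pig 2. Components were not centred within libraries for these clusters. Genes that separated the pigs in the other cells were among the leading genes of clusters 3, 7 and 9. Cluster 3 showed the opposite order, with 1 and 0 cells in PP and non-PP of pig 1, 13 (44.8%) and 9 (23.1%) in those of pig 2, and 9 (31.0%) and 17 (32.1%) in whole ileum. With 2 pigs, the animal and the preparation of its tissue cannot be told apart. Absence of a cluster was not absence of its transcripts: MUC2 had 119 UMIs in 4 cells of PP pig 2, although it had 1 UMI in non-PP pig 2. The heat shock gene HSP90AA1 showed the same split, at 861.7 and 502.8 CPM in PP and non-PP of pig 1, 3713.1 and 3457.7 CPM in those of pig 2, 3600.4 CPM in the library labelled whole ileum pig 1 and 3636.6 CPM in whole ileum pig 2.

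Between dissections, 1 of 9 kinds separated PP from non-PP. Cluster 9 was 9 of 74 cells in PP pig 1 (12.2%) and 4 of 29 in PP pig 2 (13.8%), against 1 of 162 in non-PP pig 1 (0.617%) and 0 of 39 in non-PP pig 2, and it was 4 of 29 in the library labelled whole ileum pig 1 and 2 of 53 in whole ileum pig 2. The difference of the means was 12.7 percentage points (two-sided exact permutation p = 0.333, the smallest possible). Crypt-like cells were 18.9% and 24.1% in PP against 4.94% and 25.6% in non-PP, which overlapped (mean difference 6.24 percentage points, exact permutation p = 1). Enterocyte-like cells overlapped as well (-11.6 percentage points, exact permutation p = 0.667), and so did goblet-like (-5.01, p = 1), enteroendocrine-like (-4.02, p = 0.667) and cluster 3 cells (11.6, p = 0.667). Clusters 5, 6 and 7 differed by -7.81, -4.75 and 2.74 percentage points and overlapped too. Besides cluster 9, the difference within pigs, pig 1 first, kept 1 sign for enterocyte-like cells (-20.7 and -2.56). It also did for cluster 3 (1.35 and 21.8) and cluster 6 (-6.94 and -2.56). In each of these, 1 of the pigs differed by only 1 cell. The sign turned between pigs for crypt-like, enteroendocrine-like and cluster 5 cells, and goblet-like and cluster 7 cells were at 0 in pig 2.

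PP and non-PP epithelial cells were then compared gene by gene, with UMIs summed per library so that the library and not the cell was the replicate. Over 5013 genes, edgeR's quasi-likelihood test with Benjamini-Hochberg adjustment called 0 genes (0.0%), with a smallest adjusted p of 0.269. At an unadjusted p below 0.05 there were 111 genes higher in PP (2.21%) and 134 lower (2.67%), and both PP libraries lay above both non-PP libraries in 834 genes (16.6%) and below in 619 (12.3%). The median log2 fold change was 0.02. The same fit without the library labelled whole ileum pig 1 also called 0, with 196 genes at an unadjusted p below 0.05. DESeq2, without a block, called 12 of the 5013 genes (0.239%). It gave some of the 5013, among them ZNF70, HLA-DRA, IRF8 and SDSL, no adjusted p, so that share is not over the genes it adjusted. Of the 12 called, GUCA2B, GUCA2A, CFB, CA7, S100A2 and a gene known by identifier were higher in PP. GZMB, GNLY, CCL5, CPO, 1 identifier of GZMA and another gene known by identifier were lower. PP and non-PP of 1 number came from the same pig, and with the pig as a block the test called 4 genes (0.0798%), all higher in PP: BPI, CFB, GUCA2B and RETNLB. With the block and without the library labelled whole ileum pig 1 it called 36 genes (0.604%), 15 higher and 21 lower, and with PP and non-PP libraries alone 4 genes (0.0727%), BPI, CFB and GUCA2B higher and GNLY lower. Apart from these 5 genes, those called with the block and without the library labelled whole ileum pig 1 were called by neither other blocked fit. In the other cells of the same libraries, which were far better sampled, 2681 of 12215 genes (21.9%) differed. The study also reports a larger share of B lineage cells in PP than in non-PP samples. The cause of the larger count was not tested.

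**Figure D4:**
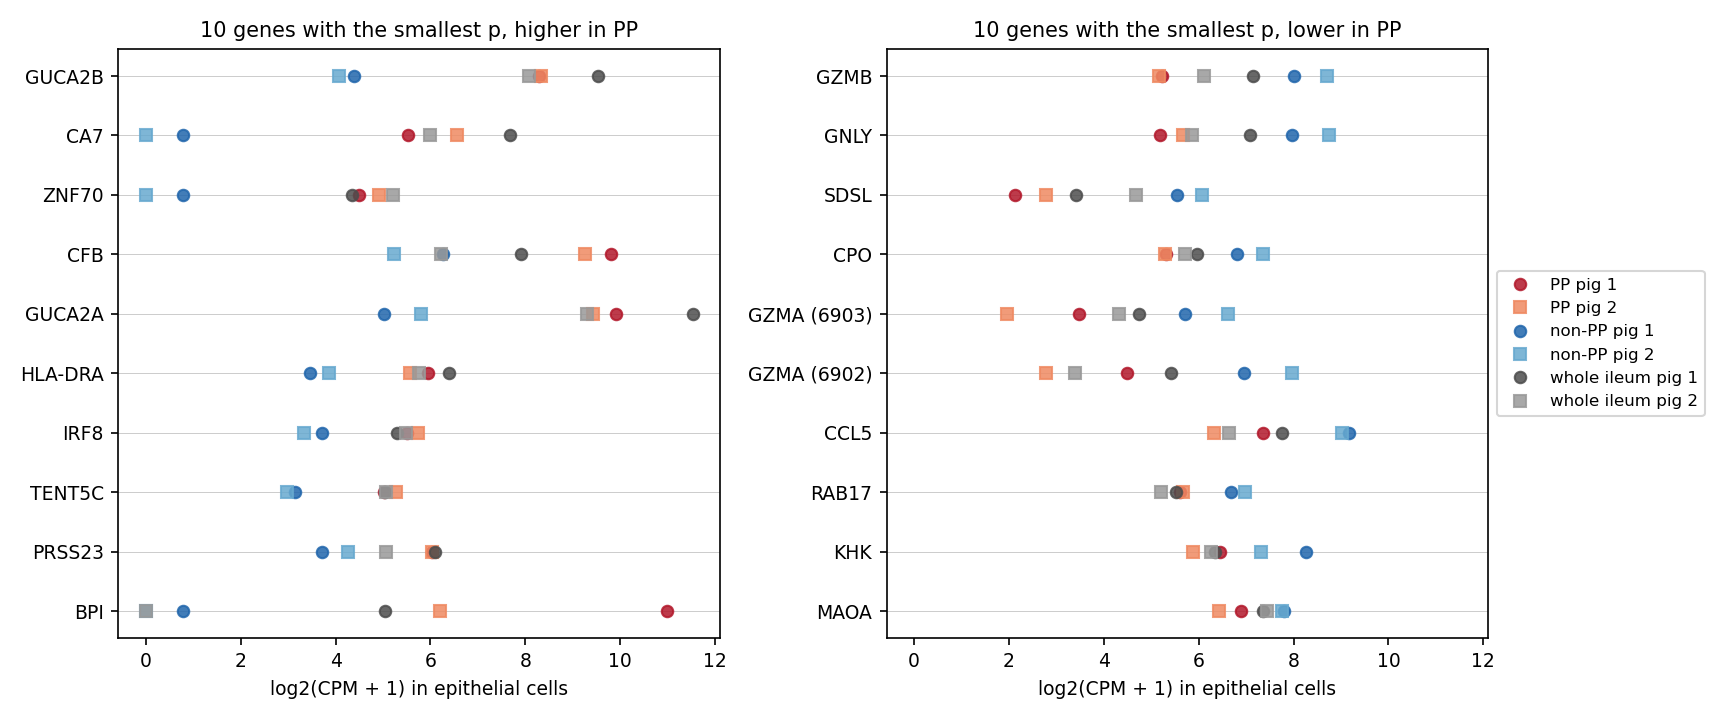
Level in the summed epithelial cells of each library, as log2(CPM + 1), for the 10 genes with the smallest p higher in PP (left) and lower in PP (right). Both PP libraries lay on the same side of both non-PP libraries in each gene, as the choice of genes favours, and none passed the adjusted threshold in edgeR's fit over 6 libraries without the pig as a block. The bracketed digits tell apart GZMA's pair of identifiers.

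The guanylin genes were called higher in PP epithelium by DESeq2 without a block, and GUCA2B also by edgeR with the pig as a block. GUCA2B, which encodes uroguanylin, a peptide that drives fluid secretion through guanylate cyclase C, had 313.6 CPM in PP pig 1 and 323.3 CPM in PP pig 2, against 20.1 and 15.9 CPM in non-PP, 735.5 CPM in the library labelled whole ileum pig 1 and 271.1 CPM in whole ileum pig 2. Both PP and both whole ileum libraries stood above both non-PP libraries. The log2 fold change was 4.01 (SE 0.53, edgeR quasi-likelihood Benjamini-Hochberg adjusted p = 0.269, 0.0235 with the pig as a block, 0.00110 with the block without the library labelled whole ileum pig 1; DESeq2 adjusted p = 2.26e-08). GUCA2A, guanylin, had 968.1 and 690.2 CPM in PP, 31.5 and 54.6 CPM in non-PP and 2951.6 and 631.4 CPM in whole ileum (log2 fold change 4.25, SE 0.76, edgeR quasi-likelihood adjusted p = 0.331, 0.111 with the block), and the blocked fit without the library labelled whole ileum pig 1 called it (edgeR quasi-likelihood adjusted p = 0.00304), as did DESeq2 (adjusted p = 2.22e-07). When cells with CD3E or CD79B UMIs were kept, the log2 fold changes were smaller, at 1.82 for GUCA2B, 1.85 for GUCA2A and 1.54 for CA7.

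Few cells carried the guanylin difference. GUCA2B was seen in 10 of 74 cells of PP pig 1 and 1 of 29 of PP pig 2. In non-PP it was seen in 21 of 162 cells of pig 1 and 5 of 39 of pig 2. The PP cells with a UMI held more UMIs each. A single cell supplied 32.7% of all epithelial GUCA2B UMIs, and 6 cells of cluster 3 supplied 86.3%, while for GUCA2A 8 cells of cluster 3 supplied 80.3%. CA7, a carbonic anhydrase of the same rare cell, had 40 and 32 UMIs in PP, each from 1 cell, 1 and 0 UMIs in non-PP and 63 and 33 UMIs in whole ileum. Its ratio over the summed groups was 108 (exact counting interval 18.7 to 4320), and its fitted fold change depends on the prior count. The blocked fit without the library labelled whole ileum pig 1 called CA7 (edgeR quasi-likelihood adjusted p = 0.00467), as did DESeq2 without a block (adjusted p = 0.00122), whereas edgeR's adjusted p was 0.313 without the block, 0.123 with the block over 6 libraries and 0.0995 over the PP and non-PP libraries. BEST4, the channel that names this cell, had 13 and 4 UMIs in PP against 2 and 0 in non-PP and was too low to be tested. The CA7 UMIs came from 6 cells in all, so the difference rests on very few cells.

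BPI, CFB and RETNLB, leading genes of cluster 9, were called higher in PP with the pig as a block. Of the 4 tested genes of the Paneth and antimicrobial list, 0 were called over 6 libraries without the block and 1, BPI, had an unadjusted p below 0.05 (2.21% of all genes, higher in PP). BPI, which binds bacterial lipopolysaccharide, had 2032.5 CPM in PP pig 1 (1795 UMIs in 8 cells) and 72.8 CPM in PP pig 2 (25 UMIs in 2 cells), 1 UMI in non-PP pig 1, 0 in non-PP pig 2, 32.1 CPM in the library labelled whole ileum pig 1 and 0 in whole ileum pig 2. The PP libraries lay above both non-PP libraries but were far apart from each other. Over the summed groups the ratio was 2720 (exact counting interval 488 to 108000) and edgeR's quasi-likelihood test with the pig as a block gave an adjusted p of 0.00103, or 0.000189 without the library labelled whole ileum pig 1 and 0.623 without the block, while the fitted fold change depends on the prior count. PP pig 1 held nearly all of these UMIs, and without it the fitted log2 fold change went from 10.46 to 6.47. CFB had 890.0 and 608.7 CPM in PP, 75.9 and 36.4 CPM in non-PP and 237.7 and 73.9 CPM in whole ileum (log2 fold change 3.60, SE 0.64, edgeR quasi-likelihood adjusted p = 0.331, 0.0152 with the block, 0.00169 with the block without the library labelled whole ileum pig 1; DESeq2 adjusted p = 3.20e-06). RETNLB had 279.7 and 64.1 CPM in PP against 19.3 and 0 CPM in non-PP (3.71, SE 1.26, edgeR quasi-likelihood adjusted p = 0.982 without the block). With the block its log2 fold change was 4.08 (SE 0.48, edgeR quasi-likelihood adjusted p = 0.0405), and the adjusted p was 0.00680 without the library labelled whole ileum pig 1 but 0.130 over the PP and non-PP libraries alone. Of the BPI UMIs 99.9% and of the CFB UMIs 80.2% came from the 20 cells of cluster 9, so the gene differences and the share of that cluster describe the same cells.

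Absorptive genes leaned to non-PP. All 12 tested absorptive enterocyte genes had a negative log2 fold change (median -1.40, against 0.02 over all genes), 7 of them at an unadjusted p below 0.05 (2.67% of all genes), and in 8 both PP libraries lay below both non-PP libraries (12.3% of all genes), but none passed the adjusted threshold. The blocked fit without the library labelled whole ileum pig 1 called 3 of them (0.604% of all genes in that fit, in either direction), SLC5A1, the protease DPP4 (edgeR quasi-likelihood adjusted p = 0.0452) and MEP1B (0.0428). Without non-PP pig 2 edgeR's test called 8 of 16 lower (0.82% of all genes in that fit, in either direction), and without non-PP pig 1 it called 0 of 12, with the median at -0.63. ENPEP, a brush border aminopeptidase, had 163.1 and 139.8 CPM in PP, 411.8 and 272.8 CPM in non-PP and 141.3 and 123.2 CPM in whole ileum. Its log2 fold change was -1.25 (SE 0.32, edgeR quasi-likelihood adjusted p = 0.830). The cystine transporter subunit SLC7A9 had 45.3 and 26.2 CPM in PP against 131.8 and 81.8 CPM in non-PP (-1.61, SE 0.43). SLC5A1, the sodium-glucose transporter, gave -1.77 (SE 0.59) and was called with the block once the library labelled whole ileum pig 1 was left out (edgeR quasi-likelihood adjusted p = 0.0298).

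Bile acid genes, and most lipid genes, were negative as well. All 5 bile acid genes had a negative log2 fold change (median -0.87), 3 of them at an unadjusted p below 0.05 (2.67% of all genes), led by FABP6 at -1.38 (SE 0.37, edgeR quasi-likelihood adjusted p = 0.845), with NR1H4 at -0.87 (SE 0.28) and the exporter subunit SLC51A at -0.84 (SE 0.30). With the block and without the library labelled whole ileum pig 1, edgeR's quasi-likelihood test called FABP6 (adjusted p = 0.0143). Of 12 lipid genes 10 were negative (median -0.77), 2 at an unadjusted p below 0.05, FABP2 (-2.24, SE 0.78, called by the blocked fit without the library labelled whole ileum pig 1, edgeR quasi-likelihood adjusted p = 0.0291) and DGAT1, a triglyceride synthase (-0.83, SE 0.28). FABP1 gave -0.13 (SE 0.66) and APOA4, an apolipoprotein of chylomicrons, 1.04 (SE 0.66), neither past the test. The lipid median was -0.16 without non-PP pig 1, with 7 of 11 genes negative. Without PP pig 1 it was -1.23, with 11 of 12 negative. In the other cells of the same libraries the absorptive list had a median of -2.68 and the bile acid list of -2.61, so that the enterocyte transcripts found outside epithelial cells leaned the same way. The part of free RNA in the epithelial values was not tested.

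Crypt genes leaned to PP. All 5 tested stem and progenitor genes were positive (median 0.94), 3 at an unadjusted p below 0.05 (2.21% of all genes). Without non-PP pig 1 the median of this list was 0.47, with 4 of 7 genes positive. Without non-PP pig 2 it was 1.18, with 7 of 7 positive. OLFM4 had 583.1 and 725.2 CPM in PP, 207.0 and 454.7 CPM in non-PP and 632.7 and 826.7 CPM in whole ileum (0.94, SE 0.39). SMOC2, a matricellular gene of crypt base cells, gave 2.43 (SE 0.73), and SLC12A2, a basolateral chloride transporter of crypts, 0.97 (SE 0.38). Both PP libraries lay above both non-PP libraries in each of the 3 (16.6% of all genes), and none passed the adjusted threshold. Of 16 cell cycle genes 15 were positive (median 1.02), 1 of them, STMN1, a tubulin regulator, at an unadjusted p below 0.05 (1.10, SE 0.30). The median of the cell cycle list was 1.75 in the other cells and 1.64 in free RNA, whose part in the epithelial values was not tested. Without non-PP pig 1 the epithelial median was 0.23, and without non-PP pig 2 it was 1.78, with 4 of 18 called higher by edgeR's test, CDK1, CENPF, HMGB2 and TOP2A (0.82% of all genes in that fit, in either direction). The cell cycle level was low in 1 library more than in 1 dissection, since the summed list stood at 347 CPM in non-PP pig 1 against 1350, 1759 and 1409 CPM in PP pig 1, PP pig 2 and non-PP pig 2.

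Of 10 tested epithelial cytokines and immune ligands, 0 were called; 2 were higher and 3 lower in PP at an unadjusted p below 0.05 (2.21% and 2.67% of all genes; list median -0.15). PIGR had 372.5 and 451.4 CPM in PP, 159.0 and 213.7 CPM in non-PP and 433.6 and 407.6 CPM in whole ileum, without overlap of PP and non-PP (1.08, SE 0.27, edgeR quasi-likelihood adjusted p = 0.773). Of its UMIs 86.2% came from crypt-like cells. CCL28, a chemokine for antibody-secreting cells, had 28.3 and 34.9 CPM in PP against 10.7 and 13.6 CPM in non-PP (1.31, SE 0.43). CCL25 had 661.3 and 931.9 CPM in PP against 1285.6 and 1414.0 CPM in non-PP (-0.84, SE 0.33), and BTNL2 118.9 and 125.2 CPM against 181.9 and 191.0 CPM (-0.68, SE 0.24). IL18, a cytokine released by epithelium, gave -1.0 (SE 0.42). CCL20, a marker of epithelium over follicles, did not separate the dissections, at 522.0 and 946.5 CPM in PP against 136.8 and 845.7 CPM in non-PP (0.55, SE 0.71), and no gene of the follicle-associated list reached an unadjusted p below 0.05.

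Goblet, enteroendocrine and stress genes showed no common direction over 6 libraries, and the sign of the goblet median turned with the library left out. TFF3 had 44711.1 CPM in PP pig 1 and 60585.4 CPM in non-PP pig 1 but 5745.9 and 54.6 CPM in pig 2 (log2 fold change -0.37, SE 1.96). Goblet genes had a median of 0.26 with 1 of 10, RETNLB, at an unadjusted p below 0.05 (over all genes, 2.21% higher and 2.67% lower), and enteroendocrine genes a median of -0.47 with 0 of 11. Without non-PP pig 1, which leaves 1 non-PP library, whose summed goblet list stood at 921 CPM, all 10 goblet genes were positive (median 8.58), and edgeR's quasi-likelihood test called 6 of them higher, CLCA1, AGR2, TFF3 (8.86, adjusted p = 0.0290), SPDEF, MUC2 and SPINK4 (0.351% of all genes in that fit, in either direction). Without PP pig 1 9 of 10 were negative (median -0.90), and without non-PP pig 2 8 of 10 were (median -0.74). All 10 goblet genes were positive without PP pig 2 (median 0.91). The enteroendocrine median was -7.09 without PP pig 1 and -0.58 without non-PP pig 1. It was 0.11 without PP pig 2 and 0.13 without non-PP pig 2. GCG, the glucagon-like peptide precursor, ran from 0 CPM in PP pig 2 to 29352.6 CPM in non-PP pig 2. MHC class I and immunoproteasome genes, without heavy chains, had a median of -0.11 with 0 of 9. Stress genes had 0.13 with 0 of 14, and interferon genes 0.11 with 1 of 20, the chemokine CXCL10 (1.73, SE 0.59).

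Transcripts of cytotoxic lymphocytes were called lower in PP epithelium by DESeq2 without a block and by edgeR's blocked fit without the library labelled whole ileum pig 1, but not by edgeR's fit without a block. GZMB, a cytotoxic granule protease, had 36.2 and 34.9 CPM in PP epithelium, 255.7 and 416.0 CPM in non-PP and 141.3 and 68.3 CPM in whole ileum. Its log2 fold change was -3.26 (SE 0.42, edgeR quasi-likelihood adjusted p = 0.269, 0.0599 with the block over 6 libraries, 0.0604 over the PP and non-PP libraries, 0.00294 with the block without the library labelled whole ileum pig 1), beside -3.15 in the other cells, where the level ran from 1174 CPM in PP pig 1 to 14121 CPM in non-PP pig 2. Granulysin, GNLY, gave -3.08 (SE 0.47) beside -3.84, and CCL5, a T cell chemokine, -2.21 (SE 0.48) beside -2.54. The blocked fit without the library labelled whole ileum pig 1 called GNLY, CCL5 and both GZMA identifiers lower as well (edgeR quasi-likelihood adjusted p = 0.00257, 0.0177, 0.0291 and 0.0433). DESeq2 called GZMB (adjusted p = 4.51e-07), GNLY (1.16e-05), CCL5 (0.00759) and 1 of the GZMA identifiers (0.00122). GZMA, another granule protease, was present under a pair of identifiers, at 10.2 and 2.91 CPM in PP against 51.6 and 97.8 CPM in non-PP under one and 21.5 and 5.82 against 123 and 250 CPM under the other; reads shared by such near-identical genes may be split between them. A GZMB UMI was found in 65.8% of epithelial cells and in 56.8% of the other, shallower cells (21.8% and 42.7% after thinning), with a log2 ratio of levels of -5.00 ± 0.31. Free RNA held GZMB at 2257 and 3475 CPM in PP and 9739 and 17702 CPM in non-PP. CD3E was at 0 by the rule and CD4 at 0, and the summed T cell and ILC list stood at 268 and 195 CPM in PP, 992 and 1182 CPM in non-PP and 466 and 222 CPM in whole ileum. Of its 4 tested genes 3 were lower at an unadjusted p below 0.05 (2.67% of all genes). The part of free RNA or of attached lymphocytes in these values was not tested.

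Most class II genes leaned the other way. Of 4 tested class II genes 3 were higher in PP at an unadjusted p below 0.05 (2.21% of all genes; median 1.77, and 1.46 in the other cells). HLA-DRA had 61.1 and 46.6 CPM in PP epithelium against 10.0 and 13.6 CPM in non-PP (2.19, SE 0.42; edgeR quasi-likelihood adjusted p = 0.440, 0.0484 with the block without the library labelled whole ileum pig 1), beside 1.31 in the other cells, and only 4.92% of epithelial cells held a UMI after thinning, against 55.7% of the other cells. Its sign reversed to -0.86 when the limit for EPCAM and KRT8 was lowered to 1 UMI. CD74 gave 1.73 (SE 0.46) beside 1.62. TENT5C, a poly(A) polymerase of plasma cells, had 31.7 and 37.9 CPM in PP against 7.88 and 6.82 CPM in non-PP (2.07, SE 0.42), beside 0.18 in the other cells. IRF8, a transcription factor of B and myeloid cells, gave 2.00 (SE 0.39) beside 2.44, and the gene named ZNF70 in the matrices had 19 and 10 UMIs in PP against 1 and 0 in non-PP (ratio 43.4, exact counting interval 7.2 to 1770) beside a log2 fold change of 5.43 in the other cells. The antibody joining chain gene JCHAIN, at 109.8 and 96.1 CPM in PP and 13.6 and 27.3 CPM in non-PP, reached 1252.6 CPM in the library labelled whole ileum pig 1, and a single cell held 58.5% of its epithelial UMIs. All 8 tested genes of antibody-secreting cells were positive (median 0.61), 2 of them at an unadjusted p below 0.05 (2.21% of all genes), and the blocked fit without the library labelled whole ileum pig 1 called JCHAIN (edgeR quasi-likelihood adjusted p = 0.0298), while 0 genes of the B cell list were abundant enough to be tested. In epithelial cells the most abundant genes of the antibody-secreting list were SSR4, XBP1, PDIA4 and JCHAIN. Its median log2 ratio of epithelial to other cells was 0.39, against -4.96 for the T cell and ILC list. Which cells these transcripts came from was not tested.

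The change from non-PP to PP was then set against that in the other cells. The difference between the PP minus non-PP change in epithelial cells and that in the other cells, with the library as a block, was called by edgeR's quasi-likelihood test in 13 of 5013 genes (0.259%), 9 of them with a more negative and 4 with a more positive change in epithelial cells. The 9 were BLNK, BCL11A, PLEKHF2, FAM3C, SORL1, CD2AP, SLC44A1, USP6NL and GADD45A, named here after their values were seen. Each of the 9 was called higher in PP in the other cells and not called in epithelial cells: BLNK, a B cell receptor adaptor, gave 3.96 (SE 0.29) in other and -0.29 (SE 0.32) in epithelial cells, and BCL11A, a transcription factor of B cells, 4.43 (SE 0.21) and 0.03 (SE 0.42). For GUCA2B the fold changes were 4.01 in epithelial and -1.92 in other cells, for GUCA2A 4.25 and -1.17, and for the serine protease PRSS23 2.07 and -1.96. None of these 3 changes in the other cells passed the test (edgeR quasi-likelihood adjusted p = 0.208, 0.446 and 0.103). In free RNA GUCA2B was called lower in PP (log2 fold change -1.85, SE 0.35, edgeR quasi-likelihood adjusted p = 0.0242). Its level there was 34.5 and 14.9 CPM in PP against 83.7 and 81.7 CPM in non-PP. GUCA2A gave -1.37 and PRSS23 -0.13 there, neither past the test (edgeR quasi-likelihood adjusted p = 0.159 and 0.910). The part of free RNA in these values was not tested. The difference between epithelial and other cells was called for GUCA2B, GUCA2A, BPI and ADGRG1, an adhesion receptor (0.43 and -3.68). It was not called for PRSS23 (edgeR quasi-likelihood adjusted p = 0.0901). Without the library labelled whole ileum pig 1 edgeR's quasi-likelihood test called it in 0 genes, with 530 at an unadjusted p below 0.05 and an adjusted p of 0.0864 for GUCA2B, 0.175 for GUCA2A and 0.0671 for BPI. Negative in both were the log2 fold changes of the enterocyte genes CPO (-1.88 and -3.36), RAB17, an epithelial trafficking GTPase (-1.28 and -3.55), and MAOA, an amine oxidase (-1.16 and -2.27), together with SDSL, a serine dehydratase-like gene (-3.71 and -4.23), and KHK, fructokinase (-1.75 and -1.27). Of these, the blocked fit without the library labelled whole ileum pig 1 called CPO, SDSL and KHK (edgeR quasi-likelihood adjusted p = 0.0366, 0.0188 and 0.0298), of which DESeq2 called CPO (adjusted p = 0.0395), and it called PRSS23 higher in PP (0.0441).

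**Figure D5:**
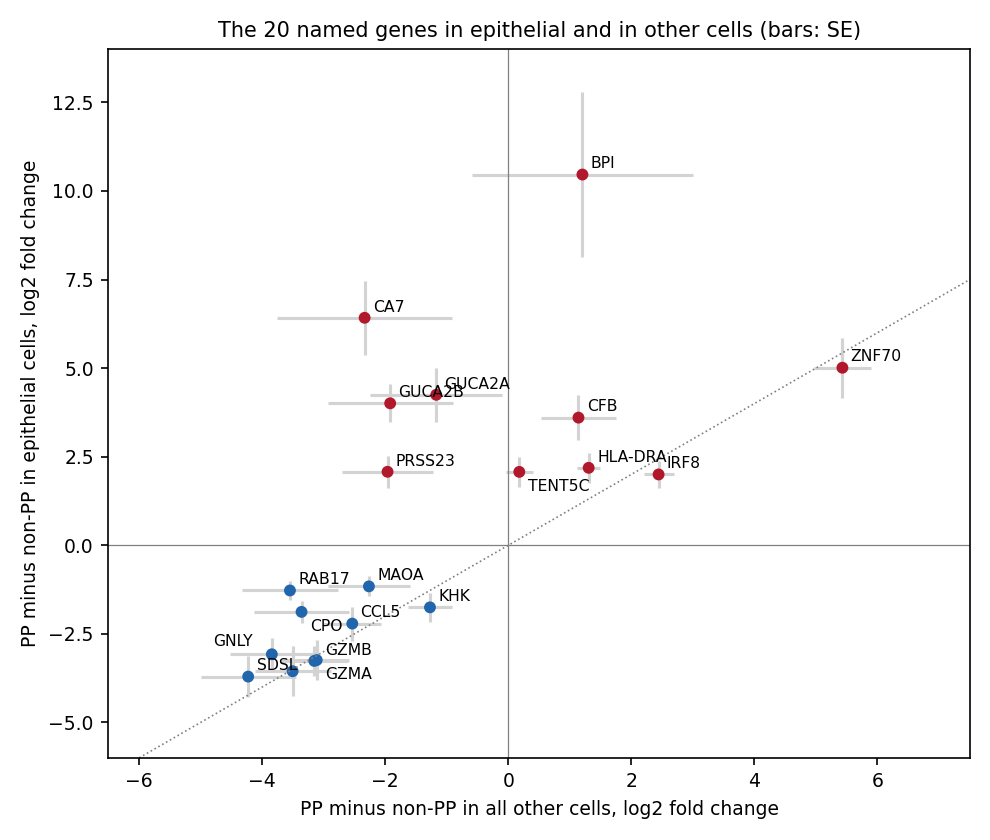
Log2 fold change PP minus non-PP in all other cells (horizontal axis) and in epithelial cells (vertical axis) for the 20 named genes, with SE as bars and the diagonal of equal change dotted. GZMB, GZMA, CCL5, ZNF70 and IRF8 lay near the diagonal, TENT5C away from it, and GUCA2A, GUCA2B, CA7 and PRSS23 lay above 0 in epithelial and below 0 in other cells.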

How the data were processed

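Single-cell RNA-seq libraries (10x Genomics, 3' chemistry) were used from the ileum and blood of 2 pigs, with 4 sequencing runs per library counted as 1 replicate. Per the labels and the study's methods, the authors aligned reads to Sus scrofa 11.1 with Cell Ranger and a modified Ensembl annotation. The deposited matrices hold raw UMI counts, before the ambient RNA removal, filtering and doublet removal that the authors applied afterwards. A cell passed quality control with at least 1250 UMIs, at least 550 genes and at most 12.5% mitochondrial UMIs. Cells and gene lists were chosen with earlier results of these data known. No doublets were removed here; the Scrublet score (expected rate 0.07, threshold 0.25) was run as a check. Of 25880 genes, 17733 were named in the matrices, 969 from a gene name table and 19 from the study's supplement.

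Epithelial UMIs were summed per library and tested with edgeR 4.0.16 (filterByExpr, TMM, quasi-likelihood, Benjamini-Hochberg adjusted p below 0.05) over 6 ileal libraries, with DESeq2 1.42.0 as an alternative. Shares were compared by two-sided exact permutation over libraries. PP and non-PP libraries of the same number came from the same pig, and their deviations correlated (r = 0.422), so fits with the pig as a block are printed where they change a call. The ratio of epithelial to other cells used CPM with a prior of 1 UMI. Clusters used 1000 variable genes by Pearson residuals (theta 100), 15 components, 15 neighbours and Leiden resolution 1 (scanpy 1.11.5). Cells were also thinned to 1250 UMIs. Named genes were the 10 with the smallest p in each direction, as fewer than 5 were called, the 25 with the largest mean epithelial ratio, and the members of each list with the most UMIs; other genes named were chosen after their values were seen. edgeR's test of PP against non-PP was also run on simulated counts with known changes, and no result printed here rests on that run.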

Additional observations from a re-analysis of the deposited data

Results flagged for a closer look

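The epithelial cells of the library labelled whole ileum pig 1, from an animal labelled female, carried Y-linked transcripts at 132 CPM, above the 0 CPM of the PP and non-PP libraries of the same pig.

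The PP minus non-PP change differed between epithelial and other cells by 6.14 on the log2 scale for GUCA2B, by 5.87 for GUCA2A, by 4.08 for ADGRG1 and by 10.49 for BPI. On the other side it differed by -4.27 for BLNK, by -4.39 for BCL11A, by -3.02 for PLEKHF2, by -2.67 for FAM3C, by -3.15 for SORL1, by -3.39 for CD2AP, by -2.66 for SLC44A1, by -3.51 for USP6NL and by -2.69 for GADD45A. All 13 differences passed edgeR's quasi-likelihood test with Benjamini-Hochberg adjustment over 6 libraries (adjusted p from 0.0198 to 0.0435), and none passed it without the library labelled whole ileum pig 1. The BPI value rests on 1 UMI in the non-PP libraries.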

How the results depend on the processing

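Of 389 values of the 20 named genes under alternatives, 1 reversed (HLA-DRA, to -0.86 with at least 1 UMI of EPCAM and KRT8) and 69 passed the threshold. The difference in epithelial share reversed under 0 of 10 alternatives and ran from -3.43 to -0.318 when 1 library was left out. Against 0 genes called, no filter on low counts gave 40 higher and 51 lower, DESeq2 6 and 6, and keeping cells with CD3E or CD79B 1 higher, ZNF70. With the pig as a block, 4 higher were called over 6 libraries, 3 higher and 1 lower over the PP and non-PP libraries, and 15 higher and 21 lower without the library labelled whole ileum pig 1, an alternative added after the data were seen. Leaving out a PP or non-PP library leaves 1 library in that arm, whose spread is then assumed to be like that of the other groups. Leaving out 1 library gave 0 to 19 higher and 0 to 31 lower: 14 and 5 without non-PP replicate 1, 19 and 31 without non-PP replicate 2, and 0 without each of the other 4, where 145 to 280 genes had an unadjusted p below 0.05. The cause was not tested.

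Epithelial against other cells, a prior of 5 UMIs left 671 genes higher and 448 lower, and thinning 270 and 176 of 1690. Leaving out 1 library, the PP minus non-PP difference (percentage points) ran from -4.11 to 16.6 for crypt-like and -26.1 to 2.84 for enterocyte-like cells. It ran from -10.2 to 33.3 for cluster 3, -23.5 to 13.5 for goblet-like cells and -23.2 to 7.57 for cluster 5. The range was -9.64 to 0.139 for cluster 6, -4.01 to 9.50 for cluster 7 and -8.93 to 0.898 for enteroendocrine-like cells. None of these directions of unpaired means held throughout, although enterocyte-like cells and clusters 3 and 6 kept 1 sign within both pigs. Cluster 6 also reversed, to 2.13, with components centred within libraries. Cluster 9 ran from 11.9 to 13.5. With 29 epithelial cells in each of 2 libraries, rare kinds were at the limit of what could be seen.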
